A study of Mus musculus with 25 samples.

Results

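The 34 genes described here encode enzymes and regulators that carry glucose to acetyl-CoA or into the pentose phosphate pathway. They were chosen by name from textbook pathway steps, with earlier results of these data known. The list holds 15 genes for the 10 steps of glycolysis, and 3 Pfkfb genes and Tigar, which set the level of fructose-2,6-bisphosphate. It also holds 4 subunits of the pyruvate dehydrogenase (PDH) complex, 3 PDH kinases and 1 PDH phosphatase, and 3 oxidative and 4 non-oxidative genes of the pentose phosphate pathway. All 34 were found by Ensembl identifier in both deposited count tables, among 45706 genes in the first and 44674 in the second. The first table holds 16 libraries of hypothalamus from 12-week-old mice of genotype Slco1c1Cre+/-;ROSA26lSlL10aGFP+/-, in which Cre made active by tamoxifen and driven by the Slco1c1 promoter turns on a GFP-tagged ribosomal protein L10a. All mice carried both alleles and received tamoxifen 3 weeks before the diet. For 3 days they then ate either a control diet (CD) or one high in fat (HFD), and each diet has 4 INPUT libraries and 4 of RNA precipitated with antibodies to GFP (IP), each from 4 pooled mice (2 male, 2 female). The labels number both kinds from 1 to 4 but do not say that equal numbers share a pool. The second table holds 9 libraries of cEND, a line of mouse brain endothelial cells, given the vehicle DMSO or the Glut1 inhibitor WZB117 at 0.5 or 10 µM, once each at passages 12, 14 and 18. The treatment time is not given in the sources used here, and the cEND replicates are passages of 1 line. The study set out to ask how endothelial cells of the blood-brain barrier respond to a short high-fat diet, and the cEND experiment asked what follows when glucose entry is inhibited.

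Glycolysis splits glucose into pyruvate in the cytosol, and several of its steps are served by isoenzymes encoded by separate genes that differ in tissue and regulation. Pyruvate enters the mitochondrion, where the PDH complex turns it into acetyl-CoA; PDH kinases switch the complex off by phosphorylation and PDH phosphatases switch it back on. The pentose phosphate pathway leaves glycolysis at glucose-6-phosphate and yields NADPH and ribose-5-phosphate. In brain, neurons and astrocytes are known for different isoenzymes, with Eno2 typical of neurons and Aldoc of astrocytes, and many glycolytic genes are textbook targets of the hypoxia-inducible factors.

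Total counts ran from 27.9 to 42.8 M per library in the first table and from 27.3 to 41.3 M in the second, and the members had a median of mean counts of 3037 and 2749. Ribosomal RNA and mitochondrial genes took 32.4 to 39% of counts in INPUT, 7.81 to 10.5% in IP and 2.18 to 2.89% in cEND libraries. Levels are given as CPM (counts scaled to a common library total) after TMM scaling within each table, so a level set across the tables is a description only. Of 15 endothelial markers, all were higher in IP than in INPUT, but they summed to only 111 to 162 CPM in CD IP, against 25.8 to 31.0 in CD INPUT and 6286 to 8309 in DMSO-treated cEND cells. Tie1, an endothelial receptor, averaged 0.895 CPM in CD IP. All 10 astrocyte markers were also higher in IP and summed to 20870 to 24330 CPM in CD IP against 2677 to 3434 in CD INPUT. All 12 neuronal markers were lower in IP, and still summed to 4765 to 5201 CPM in CD IP against 11100 to 12400 in CD INPUT. All 8 microglial markers were lower as well; of 10 oligodendrocyte markers 3 were higher and 7 lower, of 7 pericyte and smooth muscle markers 2 and 4, of 6 fibroblast markers 1 and 5, and of 5 tanycyte and ependymal markers 3 and 1. The label "endothelial cell" of the IP libraries therefore goes with a much larger sum of astrocyte markers than of endothelial markers, and the part these cell types have in the results below was not tested. In bulk RNA, fewer cells of a type and less RNA per cell cannot be told apart.

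Precipitated RNA held more of most glycolytic, PDH and pentose phosphate transcripts than INPUT. Of the 34 members, 26 were higher in IP, 6 were lower and 2 did not pass the test (edgeR quasi-likelihood test with Benjamini-Hochberg adjustment over all genes, adjusted p under 0.05). Over all 17592 genes tested, 83.7% passed, 41.6% upward and 42.1% downward, so that a passed test alone says little about a member. The share of all genes whose IP and INPUT libraries did not overlap is not given here, so a lack of overlap below is a description only. The median log2 fold change of the members was 0.38, against -0.018 over all genes.

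**Figure D1:**
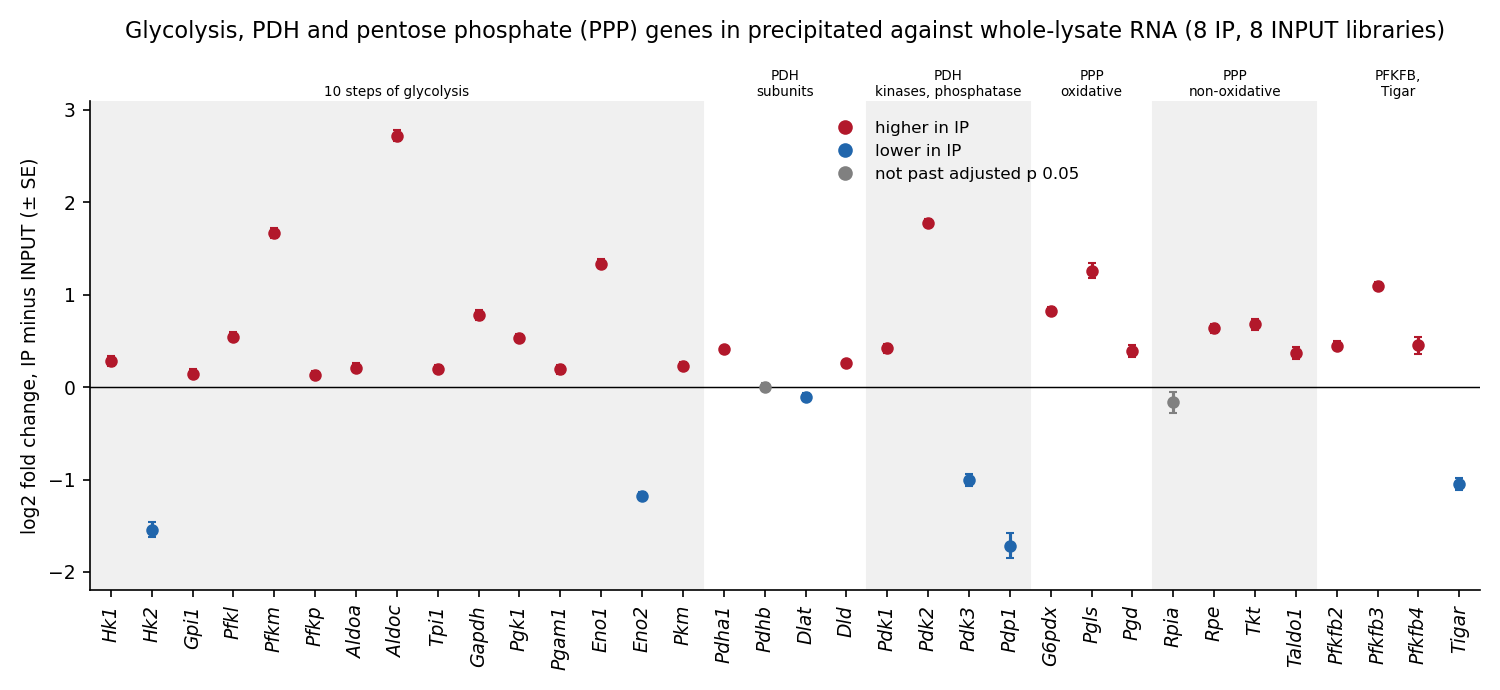
Log2 fold change of each of the 34 genes in IP against INPUT (points) with its standard error (bars), in pathway order, from 8 IP and 8 INPUT libraries; colours mark the direction of calls at adjusted p under 0.05. Aldoc stands highest at 2.72 and Pdp1 lowest at -1.71, and within single steps isoenzymes lie on opposite sides of 0.

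Among the 15 genes of the 10 glycolytic steps, 13 were higher in IP and Hk2 and Eno2 were lower. Aldoc, the aldolase typical of astrocytes, had a lowest, median and highest CPM of 956, 1020 and 1203 in the 8 INPUT libraries and 6061, 7016 and 7857 in the 8 IP libraries. The groups did not overlap, and the log2 fold change was 2.72 ± 0.058 (SE; adjusted p = 7.09e-23), a 6.60-fold difference. Aldoa, the other aldolase measured here, was higher by only 0.21 ± 0.045 (adjusted p = 0.000123). Pfkm, 1 of 3 phosphofructokinases that commit sugar to glycolysis, lay at 85.8, 98.2 and 114 CPM in INPUT and 281, 318 and 356 CPM in IP, a log2 fold change of 1.67 ± 0.055 (adjusted p = 2.64e-19). Pfkl was higher by 0.54 ± 0.048 and Pfkp by 0.13 ± 0.041 (adjusted p = 1.5e-10 and 0.00505). Pfkm thus differed far more between the fractions than either of its isoenzymes.

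The enolases, which make phosphoenolpyruvate, lay on opposite sides. Eno1, the widely expressed form, had 217, 237 and 261 CPM in INPUT and 548, 622 and 695 CPM in IP (1.34 ± 0.052, adjusted p = 7.05e-18). Eno2, the neuronal form, had 359, 383 and 394 CPM in INPUT and 147, 172 and 188 CPM in IP (-1.18 ± 0.042, adjusted p = 1.69e-18). Neither gene's INPUT and IP libraries overlapped, and all 12 neuronal markers, of which Eno2 is not one, were lower in IP too (their part in the Eno2 value was not tested). The hexokinases, which trap glucose as glucose-6-phosphate, also parted: Hk1 was higher in IP by 0.29 ± 0.053 (adjusted p = 2.36e-05) with overlapping libraries, and Hk2 was lower at -1.54 ± 0.078 (adjusted p = 1.78e-15), from 10.1, 11.3 and 12.8 CPM in INPUT to 3.21, 4.05 and 4.398 CPM in IP. Of the single-gene steps, Gapdh, which makes 1,3-bisphosphoglycerate, differed most at 0.78 ± 0.058 (adjusted p = 3.77e-12), from 1600, 1790 and 1957 to 2720, 3068 and 3554 CPM. Pgk1, the first ATP-making enzyme of the pathway, followed at 0.53 ± 0.040 (adjusted p = 4.31e-12). The remaining steps differed little: Pkm (pyruvate kinase) by 0.23, Pgam1 (phosphoglycerate mutase) by 0.20, Tpi1 (triose phosphate isomerase) by 0.20 and Gpi1 (glucose phosphate isomerase) by 0.15 on the log2 scale. With the CD libraries alone Pfkp and Tpi1 did not pass (adjusted p = 0.0718 and 0.0504), and with the HFD libraries alone Gpi1 and Pfkp did not (0.203 and 0.111).

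Fructose-2,6-bisphosphate, the allosteric activator of phosphofructokinase, is made and broken down by the Pfkfb enzymes and broken down by Tigar. Pfkfb3, the form with the strongest kinase activity, lay at 26.8, 30.8 and 32.0 CPM in INPUT and 57.4, 64.6 and 79.3 CPM in IP (1.09 ± 0.046, adjusted p = 3.48e-17). Pfkfb2 and Pfkfb4 were higher by 0.45 ± 0.049 and 0.45 ± 0.091, with adjusted p = 5.54e-09 and 6.64e-05. Tigar was lower, from 13.3, 13.8 and 14.7 CPM in INPUT to 5.21, 7.02 and 7.78 CPM in IP (-1.05 ± 0.067, adjusted p = 2.09e-13). All 3 Pfkfb genes were thus higher in IP and Tigar lower, and no IP library overlapped an INPUT library for any of the 4. How many of all genes were without overlap is not given here.

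The 4 PDH subunits among the members differed little between the fractions, and the regulators of the complex differed widely. Pdhx, a component of the complex outside the members, was higher in IP by 0.53 ± 0.047 (adjusted p = 1.6e-10). Pdha1 (the E1 alpha subunit) was higher in IP by 0.41 ± 0.039 and Dld (E3) by 0.26 ± 0.039, with adjusted p = 3.82e-10 and 1.19e-06. Pdhb (E1 beta) did not pass, at 68.2, 78.5 and 80.4 CPM in INPUT and 74.0, 77.6 and 80.8 CPM in IP (adjusted p = 0.997). Dlat (E2) was lower at -0.11 ± 0.043 (adjusted p = 0.0285), a call that was lost on leaving out any of 7 single libraries (CD IP replicates 1, 2 and 3, CD INPUT replicate 2, HFD INPUT replicate 2, HFD IP replicates 3 and 4; adjusted p from 0.056 to 0.0932), with the HFD libraries alone (adjusted p = 0.109) and with no filter on low counts (0.155). Of the kinases, Pdk2 rose from 89.2, 98.99 and 103 CPM in INPUT to 310.1, 347 and 369.8 CPM in IP (1.78 ± 0.045, adjusted p = 1.36e-21). Pdk1 was higher by 0.42 ± 0.048 (adjusted p = 1.14e-08) and Pdk3 was lower at -1.01 ± 0.066 on the same scale (adjusted p = 4.03e-13). Pdp1, a phosphatase that reverses the kinases, had 91.1, 107 and 166 CPM in INPUT and 30.5, 35.6 and 41.5 CPM in IP (-1.71 ± 0.13, adjusted p = 2.13e-08). Its SE was the widest of the 34 genes, and the INPUT libraries of replicate 2 stood above the others of their diet, at 150 CPM in CD and 166 CPM in HFD. All INPUT libraries were nevertheless above all IP libraries. Outside the members, the PDH phosphatase Pdp2 went the other way and was higher in IP by 1.21 ± 0.064 (adjusted p = 5e-15). Pdpr, a regulatory subunit of the phosphatase, was higher by 1.04 ± 0.052 (adjusted p = 1.69e-15).

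All 3 genes of the oxidative pentose phosphate branch, which makes NADPH, were higher in IP. G6pdx, the enzyme that opens the branch, lay at 67.0, 67.7 and 72.9 CPM in INPUT and 104, 125 and 135 CPM in IP (0.82 ± 0.044, adjusted p = 5.02e-15). Pgls (lactonase) was higher by 1.26 ± 0.084 and Pgd (6-phosphogluconate dehydrogenase) by 0.40 ± 0.064, with adjusted p = 4.4e-13 and 3.51e-06. In the non-oxidative branch, which interconverts sugar phosphates, Tkt (transketolase), Rpe and Taldo1 (transaldolase) were higher by 0.68, 0.64 and 0.37 on the log2 scale, with adjusted p = 1.41e-10, 1.19e-11 and 1.5e-05. Rpia, at 2.06, 2.61 and 3.47 CPM in INPUT and 2.22, 2.39 and 2.83 CPM in IP, did not pass (adjusted p = 0.189).

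Levels were compared between genes after division by exon length (CPM per kilobase, means with SD). In CD IP (n = 4), Aldoc led at 2278 ± 152, followed by Gapdh at 735 ± 57 and Pgam1 at 413 ± 37.1, and the ranges of these 3 genes did not overlap. In CD INPUT (n = 4), Gapdh led at 418 ± 22.0, above Pgam1 at 355 ± 11.6 and Aldoc at 335 ± 31.7, whose ranges overlapped. In DMSO-treated cEND cells (n = 3), Pkm at 618 ± 55.7 and Pgk1 at 613 ± 85.6 led with overlapping ranges, and Aldoc was last of 34 at 0.0589 ± 0.00997. Rpia was the lowest member in both bacTRAP groups, at 0.478 ± 0.0782 in CD INPUT and 0.469 ± 0.0542 in CD IP.

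Within the 6 families that have 2 or 3 members here, each gene's share of its family's length-scaled counts shows which isoenzyme led. These shares are descriptions with no test, and cover only the members listed (Hk3 and Pdk4, for example, are outside them). Aldoc made up 66.3% ± 1.20 of aldolase in CD INPUT, 91.8% ± 0.491 in CD IP and 0.0155% ± 0.00421 in DMSO-treated cEND cells (SD). Pfkm led phosphofructokinase with 68.2% ± 1.65 in CD INPUT and 84.8% ± 0.821 in CD IP, and Pfkl led with 57.9% ± 3.93 in cEND cells. Pdk2 led the PDH kinases with 72.1% ± 1.84 in CD INPUT and 91.2% ± 1.15 in CD IP, and Pdk3 led with 65.0% ± 7.25 in cEND cells, where Pdk2 held 2.29% ± 0.514. The lead of Pdk3 rests on the division by length, since Pdk1 had 34.5 CPM and Pdk3 22.7 CPM with DMSO. In these 3 families the leading isoenzyme of CD IP was therefore not that of cEND cells. Eno2 was the leading enolase in CD INPUT with 65.2% ± 0.773, held 25.4% ± 1.11 in CD IP and was 1.49% ± 0.210 in cEND cells. Hk1 led hexokinase and Pfkfb3 its family in every group. Eno1 has a near-identical copy, Eno1b, which took 0.684 to 1.55% of the counts of both together in CD INPUT and CD IP but 43.1 to 44.8% in cEND libraries, so that the Eno1 level in cEND cells is uncertain.

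**Figure D2:**
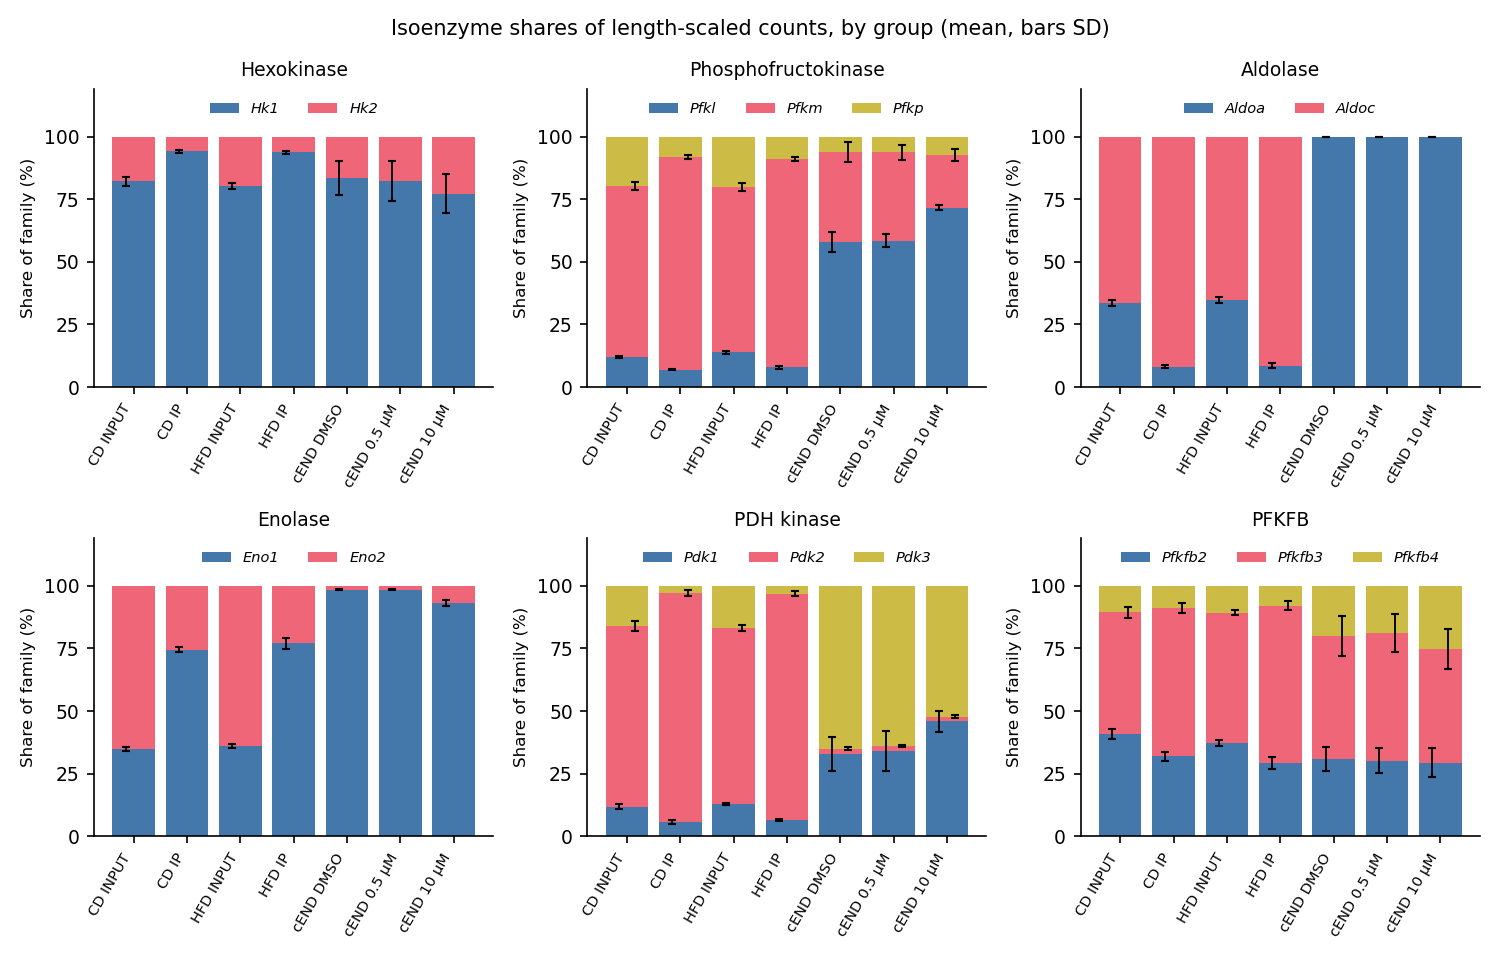
Share of each isoenzyme in its family (percent of CPM per kilobase; stacked means by group, bars SD at the boundaries; n = 4 in bacTRAP and 3 in cEND groups). Aldoc, Pfkm and Pdk2 fill most of their families in IP (91.8%, 84.8% and 91.2% in CD IP), and Aldoa, Pfkl and Pdk3 have the highest mean shares in cEND groups (Pdk3 52.2% and Pdk1 45.9% with 10 µM).

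Other genes around the pathway were taken from lists of names, and their counts are to be read against the 83.7% of all genes that passed. Of 14 tested isoenzymes outside the members, 7 were higher in IP and 6 lower, among them Pdk4, a kinase of PDH (2.21 ± 0.051), Bpgm, which makes 2,3-bisphosphoglycerate (1.30 ± 0.042), and Hk3 (-2.86 ± 0.24). Of 26 tested genes of glucose entry, lactate, mitochondrial pyruvate entry and side branches, 18 were higher and 4 lower. Among those of smallest p, Mpc1, part of the mitochondrial pyruvate carrier, was higher by 1.75 ± 0.052, Psph and Psat1 of serine synthesis by 1.98 ± 0.062 and 1.45 ± 0.047, and Pgm2l1 was lower at -1.69 ± 0.055 on the log2 scale. Of 18 genes of the hypoxia response, the subunits of the hypoxia-inducible factors included, 12 were higher and 4 lower. Among them were the subunits Epas1 (HIF-2 alpha) at 2.27 ± 0.056 and Hif1a at 0.82 ± 0.052, and Ndrg1 at -1.45 ± 0.052. These genes all passed at adjusted p of 4.88e-11 or below.

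High-fat feeding for 3 days changed no member past the threshold. In IP, 0 of 34 passed (edgeR), where 14 of 15858 genes did (0.0883%), and 5 members had an unadjusted p under 0.05 against 11.5% of all genes. In INPUT, 0 of 34 passed, where 0.0355% of genes did, and 4 members had an unadjusted p under 0.05 against 7.45%. The members' log2 fold changes ran from -0.27 to 0.29 in IP with a median of -0.025, and from -0.23 to 0.17 in INPUT with a median of -0.023. The difference between the diet effects in IP and INPUT passed for 0 of 34 members and 0 of 17592 genes (edgeR), with 1 member (Rpe) at an unadjusted p under 0.05 against 4.29% of genes.

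The members nearest to a call were Rpe, Pfkfb3 and Tkt. Rpe, ribulose-phosphate epimerase of the non-oxidative branch, had 34.6, 37.5, 36.7 and 30.1 CPM in CD IP and 42.0, 39.8, 40.9 and 46.1 CPM in HFD IP. All 4 HFD libraries were above all 4 CD libraries, and the log2 difference was 0.29 ± 0.079 (adjusted p = 0.149). In INPUT it was 0.068 ± 0.063 (adjusted p = 0.85). Pfkfb3 had 57.4, 62.6, 58.2 and 63.6 CPM in CD IP and 65.7, 68.0, 70.7 and 79.3 CPM in HFD IP, again without overlap (0.24 ± 0.071, adjusted p = 0.173), and 0.13 ± 0.060 in INPUT (adjusted p = 0.65). Tkt had 94.0, 92.4, 98.9 and 121 CPM in CD IP and 86.5, 87.0, 74.7 and 85.4 CPM in HFD IP, so that every HFD library was below every CD library (-0.27 ± 0.084, adjusted p = 0.212). Pdp1 in IP was also without overlap, at 36.2, 41.5, 35.6 and 39.1 CPM in CD and 33.7, 35.1, 35.5 and 30.5 CPM in HFD (-0.16 ± 0.076, adjusted p = 0.41). So was Pdk1 in INPUT, narrowly, at 37.16 to 42.14 CPM in CD and 42.16 to 44.11 CPM in HFD. The share of all genes without overlap is not given here, so the lack of overlap is a description only. Rpe and Tkt, both of the non-oxidative branch, thus stood on opposite sides. Rpe passed with DESeq2 (adjusted p = 0.049), and Rpe and Tkt passed with no filter on low counts (adjusted p = 0.0259 and 0.0229).

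Aldoc, the most abundant member in IP, had 6873, 7857, 7846 and 7158 CPM in CD IP and 6061, 6833, 7284 and 6521 CPM in HFD IP (-0.14 ± 0.088, adjusted p = 0.57), with overlapping groups. The 10 astrocyte markers summed to 20870 to 24330 CPM in CD IP and 18360 to 21340 CPM in HFD IP, with a median log2 difference of -0.14 and 0 of 10 passing, and their part in the members' values was not tested. Hk1, Pfkm, Eno2 and Pkm had differences of -0.17, -0.14, -0.12 and -0.11 in IP, and none passed (lowest adjusted p 0.41). The SEs of the 34 members in IP ran from 0.062 to 0.17. None of 11 other isoenzymes, 25 genes of glucose entry and exit or 17 hypoxia genes tested in IP passed, nor did any gene of these lists in INPUT. Those of smallest p in IP were Pdp2 (-0.29 ± 0.082, adjusted p = 0.166) and H6pd (-0.42 ± 0.14, 0.256), Pgm1 (-0.36 ± 0.077, 0.0688) and Slc2a1 (-0.32 ± 0.088, 0.161), and Ndrg1 (-0.28 ± 0.085, 0.209) and Hif1a (-0.13 ± 0.077, 0.565). Slc2a1, the gene of Glut1, lay at 125 to 151 CPM in CD IP and 97.9 to 127 CPM in HFD IP.

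**Figure D3:**
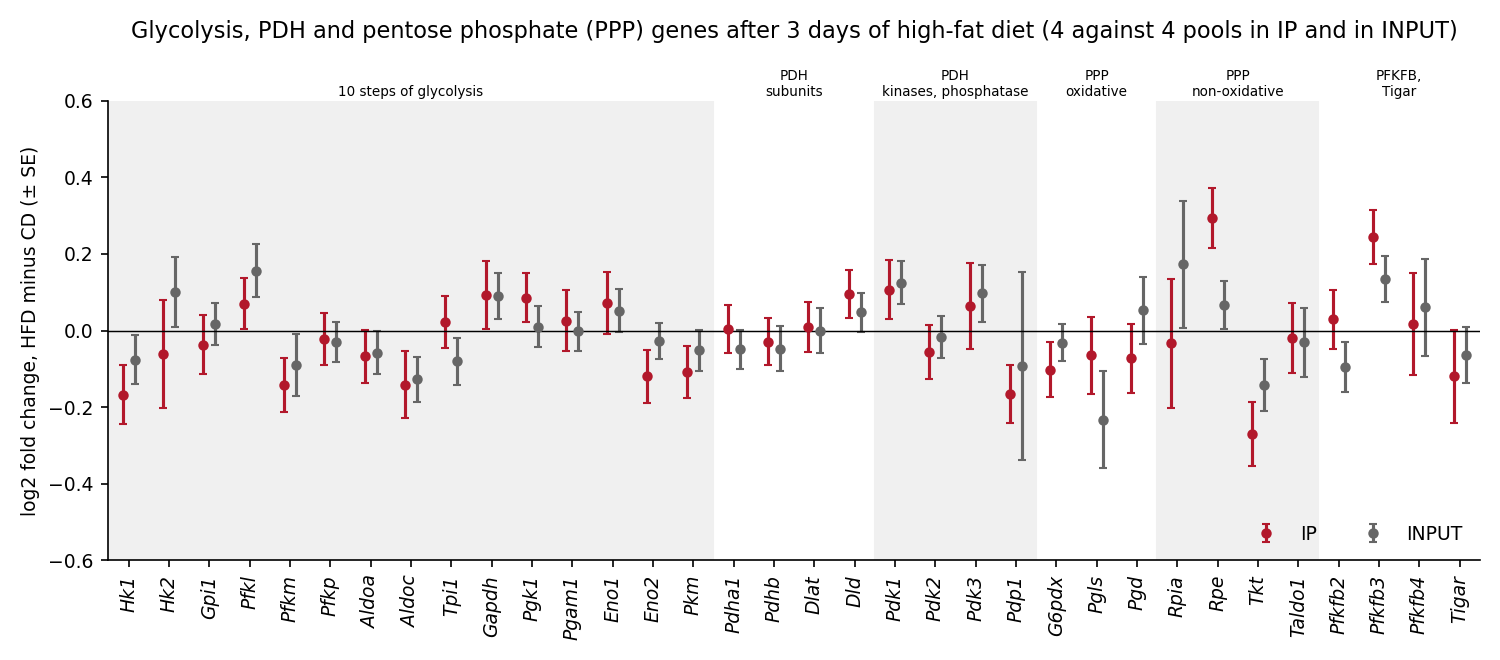
Log2 fold change of the 34 genes in HFD against CD (points) with SE (bars), for 4 against 4 pools in IP (red) and in INPUT (grey). Rpe and Pfkfb3 stand highest in IP (0.29 and 0.24) and Tkt lowest (-0.27), and no gene passed the adjusted p of 0.05.

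In cEND cells 10 µM WZB117 raised 8 of the 33 members tested and lowered none (edgeR, adjusted p under 0.05), where 1.27% of 15466 genes passed (0.853% up, 0.42% down). The 8 were Hk1, Gpi1, Pfkl, Pfkp, Tpi1, Eno2, Pdk1 and Pgd: 6 genes at 5 of the 10 glycolytic steps, 1 PDH kinase and 1 gene of the oxidative pentose phosphate branch. Aldoc, at 0.0811 to 0.431 CPM in all 9 libraries, did not pass the filter on low counts; in the same table the 10 astrocyte markers summed to 160.5 to 180.5 CPM with DMSO, and 8 of the 10 averaged under 1 CPM. The labels name a shared passage for libraries of the same number, and these deviated together, so that results of a fit with passage as a block (blocked) are given as well; in that fit 17 members rose and 0 fell, where 8.92% of 15949 genes rose and 8.94% fell. The 9 further members were Hk2, Aldoa, Gapdh, Pgk1, Pgam1, Eno1, Pkm, Pdk3 and G6pdx. All 14 tested genes of the 10 glycolytic steps had positive differences, and with the block all but Pfkm passed.

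Eno2 changed most. It had 5.66, 5.43 and 5.18 CPM with DMSO at passages 12, 14 and 18, 5.70, 5.23 and 5.32 CPM with 0.5 µM and 43.5, 36.9 and 28.5 CPM with 10 µM. The 10 µM libraries stood far above all others, a log2 fold change of 2.73 ± 0.16 or 6.65-fold (adjusted p = 0.000362; 2.71 ± 0.11 with adjusted p = 1.48e-15 in the blocked fit). Its share of enolase went from 1.49% ± 0.210 with DMSO to 6.78% ± 1.16 with 10 µM, so that Eno1 remained the leading form. Eno1b is not counted in these shares, and counting it with Eno1 would lower both. Eno1 itself had 369, 464 and 412 CPM with DMSO and 566, 614 and 525 CPM with 10 µM (0.45 ± 0.14, adjusted p = 0.237; blocked 0.45 ± 0.068, adjusted p = 2.14e-05). With the counts of Eno1b added, the unblocked difference of Eno1 was 0.43 on the log2 scale (adjusted p = 0.273).

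At the first step, Hk1 had 245, 290.1 and 273 CPM with DMSO and 479, 437 and 436 CPM with 10 µM (0.73 ± 0.10, adjusted p = 0.0128; blocked adjusted p = 6.05e-08). Hk2 had 53.7, 36.8 and 22.7 CPM with DMSO and 145, 93.5 and 51.98 CPM with 10 µM. Within each passage Hk2 was higher with 10 µM, but the groups overlapped across passages: the difference was 1.35 ± 0.45 (adjusted p = 0.27) without the block and 1.32 ± 0.068 (adjusted p = 3e-13) with it. Gpi1, the second step, rose by 0.53 ± 0.086 (adjusted p = 0.0202; blocked 1.34e-06). At the third step, Pfkl had 191, 298 and 263 CPM with DMSO and 619, 560.4 and 546 CPM with 10 µM (1.19 ± 0.19, adjusted p = 0.0181; blocked 0.0123). Pfkp had 50.6, 62.6 and 41.7 CPM with DMSO and 152, 119.2 and 91.9 CPM with 10 µM (1.22 ± 0.22, adjusted p = 0.0309; blocked 0.000541). Pfkm did not pass in either fit (0.11 ± 0.13, adjusted p = 0.877 and, blocked, 0.293), and its share of phosphofructokinase went from 36% ± 3.98 to 20.9% ± 2.39 while that of Pfkl went from 57.9% ± 3.93 to 71.7% ± 0.989.

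Tpi1, which interconverts the triose phosphates, had 416, 589.6 and 466 CPM with DMSO and 1097, 1012 and 916 CPM with 10 µM (1.03 ± 0.17, adjusted p = 0.0212; blocked 0.00019). Pgam1 had 506, 769 and 686 CPM with DMSO and 1043, 1140 and 1099 CPM with 10 µM, without overlap (0.73 ± 0.18, adjusted p = 0.105; blocked 3.07e-06). The other steps had smaller differences that passed only with the block: Aldoa 0.55, Pgk1 0.55, Gapdh 0.48 and Pkm 0.38 on the log2 scale, with unblocked adjusted p = 0.0907, 0.203, 0.191 and 0.127. The summed CPM of the 15 genes of the 10 steps was 7872, 9598 and 9062 with DMSO and 13620, 13450 and 12450 with 10 µM, so that every 10 µM library was above every DMSO library.

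**Figure D4:**
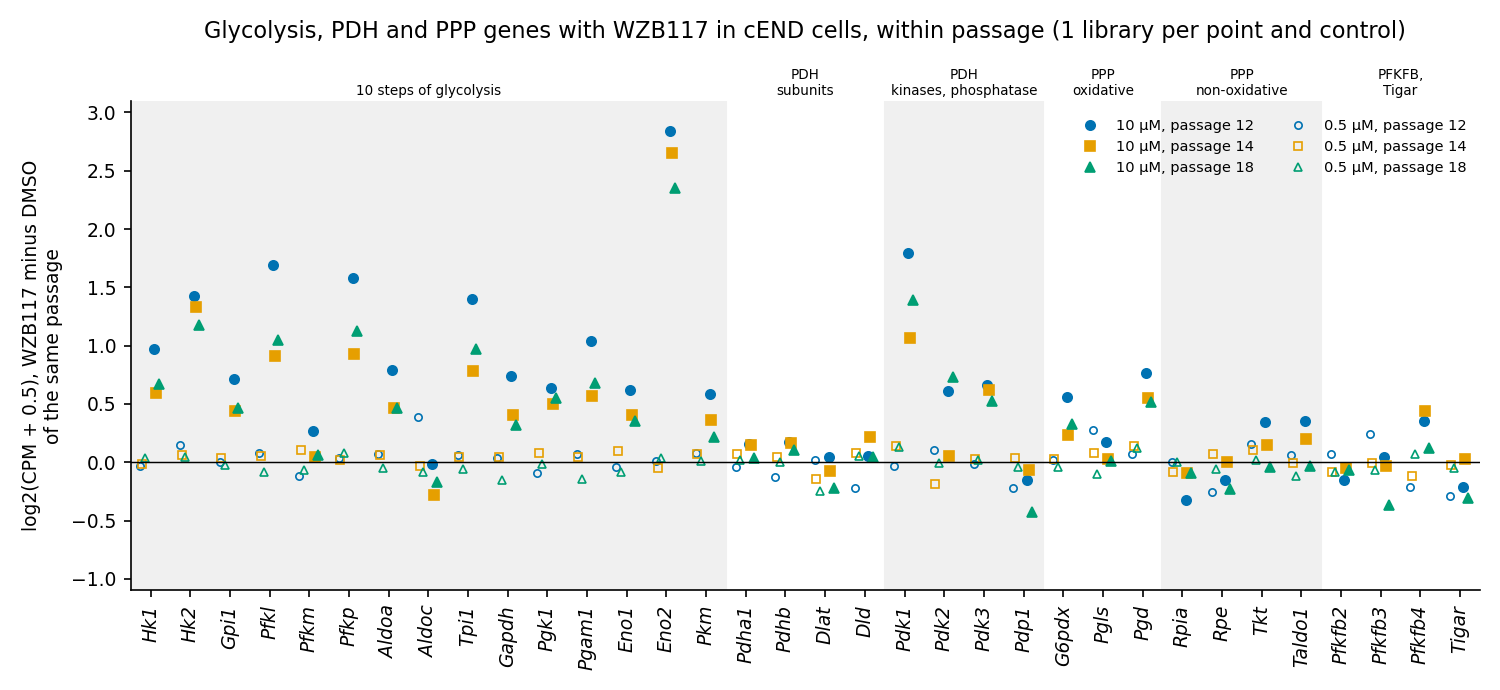
Difference in log2(CPM + 0.5) between a WZB117 library and the DMSO library of the same passage, for 10 µM (filled) and 0.5 µM (open) at passages 12, 14 and 18 (1 point per library). At 10 µM Eno2 stands at 2.84, 2.66 and 2.35 and the passage 12 point is highest for most glycolytic genes, whereas the 0.5 µM points lie between -0.29 and 0.39.

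Of the regulators of PDH, Pdk1, the kinase known as a hypoxia target, had 27.8, 41.8 and 33.8 CPM with DMSO and 97.8, 88.2 and 89.3 CPM with 10 µM (1.40 ± 0.20, adjusted p = 0.0128; blocked 0.00683). Its share of the 3 PDH kinases went from 32.7% ± 6.75 to 45.9% ± 4.18, near that of Pdk3 at 52.2% ± 4.87, and in the 10 µM library of passage 18 Pdk1 led with 50.5% against 46.8%. Pdk3 had 26.9, 22.4 and 18.9 CPM with DMSO and 42.8, 34.8 and 27.3 CPM with 10 µM (0.61 ± 0.20, adjusted p = 0.255; blocked 1.44e-06). Pdk2, at 0.768 to 1.15 CPM with DMSO, did not pass in either fit (adjusted p = 0.412 and, blocked, 0.147). None of the 4 PDH subunits passed in either fit: Pdha1, Pdhb, Dlat and Dld differed by 0.11, 0.14, -0.080 and 0.094 on the log2 scale (blocked adjusted p = 0.274, 0.132, 0.397 and 0.379). Pdp1 had a difference of -0.24 ± 0.23 (adjusted p = 0.819; blocked 0.0714).

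In the pentose phosphate pathway, Pgd had 50.4, 51.7 and 59.1 CPM with DMSO and 85.9, 76.0 and 84.6 CPM with 10 µM (0.60 ± 0.10, adjusted p = 0.0237; blocked 3.29e-07). G6pdx had 203, 192 and 188 CPM with DMSO and 299.8, 226 and 236 CPM with 10 µM, a difference of 0.38 ± 0.12 (adjusted p = 0.232; blocked 0.000226). Pgls did not pass (0.060 ± 0.097, adjusted p = 0.923; blocked 0.649), nor in either fit did any of the 4 non-oxidative genes, which ran from -0.18 (Rpia) to 0.18 (Taldo1) on the log2 scale. Pfkfb2, Pfkfb3, Pfkfb4 and Tigar differed by -0.11, -0.11, 0.33 and -0.16, and none passed in either fit.

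At 0.5 µM no member passed, and neither did any of the 15466 genes (edgeR; 55 genes, or 0.356%, had an unadjusted p under 0.05, and none was a member). In the blocked fit 0 of 33 members passed, as did 0.00627% of genes, and DESeq2 called 0 members. The members' differences from DMSO ran from -0.13 to 0.10 on the log2 scale with a median of -0.013. For Eno2 the difference was -0.014 ± 0.16 and for Pdk1 0.081 ± 0.19. Between 10 and 0.5 µM, 7 of 33 members rose and 0 fell, where 0.86% of genes rose and 0.414% fell. These were Hk1, Gpi1, Pfkl, Pfkp, Tpi1, Eno2 and Pdk1, and Pgd had an adjusted p of 0.054. With the block 20 rose, where 8.97% of genes rose and 8.16% fell. The 3 comparisons share libraries with each other.

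The call count at 10 µM depended on single libraries, for the members as for all genes (197 genes called, 38 to 195 on leaving out 1 library). Without the DMSO or the 10 µM library of passage 12, only Eno2 passed in the unblocked fit (1 of 33). From 8 calls, 5 and 4 members passed without the DMSO library of passage 14 and of passage 18. Against 0.5 µM, where all genes went from 197 to between 33 and 152, 1 member passed without the 0.5 µM or the 10 µM library of passage 12, and 4 without the 0.5 µM library of passage 18.

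Genes outside the pathway that belong to the hypoxia response also rose. They were listed with earlier results of these data known, so their count is a description only. Of 18 such genes, which include the subunits Hif1a, Epas1 and Arnt of the hypoxia-inducible factors, 12 rose with 10 µM and 0 fell. Their median log2 difference was 1.27 against -0.013 over all genes. Those of smallest p were Mxi1 (2.15 ± 0.20), Bnip3 (3.18 ± 0.29), Vegfa (1.26 ± 0.12), Kdm3a (1.18 ± 0.13), Higd1a (1.29 ± 0.15) and Bnip3l (1.29 ± 0.16), with adjusted p from 0.00245 to 0.00879, and all 6 passed in the blocked fit. Bnip3, a mitophagy receptor, went from 14.8 to 28.0 CPM with DMSO to 172 to 211 CPM with 10 µM. Of 25 tested genes of glucose entry, lactate and side branches, 2 rose and 0 fell. Slc2a1, which encodes Glut1, the transporter that WZB117 inhibits, went from 70.1 to 98.7 CPM with DMSO to 269 to 369 CPM with 10 µM (1.92 ± 0.19, adjusted p = 0.00309; blocked 0.00308), and Pgm1, which links glucose-6-phosphate to glycogen, from 57.8 to 74.3 to 168 to 201 CPM (1.45 ± 0.13, adjusted p = 0.00245; blocked 3.26e-06). None of 9 other isoenzymes tested passed without the block, the smallest p being those of Pdpr (0.58 ± 0.27, adjusted p = 0.471) and Pfkfb1 (-0.30 ± 0.17, 0.611). In the blocked fit Pdpr passed (adjusted p = 0.000431) and Pfkfb1 did not (0.293). With the block 14 of the 18 hypoxia genes, 8 of the 25 and 2 of the 9 rose, and 1 of the 25 fell. Of the 15 endothelial markers, 0 passed at 10 µM (4 rose and 2 fell with the block), and they summed to 6551 to 8676 CPM there.

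Since hypoxia-inducible factors are known to bind the core letters ACGTG or GCGTG, the 250 bases before each RefSeq start (build GRCm38.p6) were searched for these on both strands. Where RefSeq gives several starts, as for Pdk1 and Hk1, the one nearest to the GENCODE start was taken, and matches may overlap (CACGTG holds ACGTG on both strands). Of the 34 members 33 had an entry, and 23 of the 33 held at least 1 match (8 with ACGTG, 18 with GCGTG), against 38.6% of 32851 windows of all genes (16.6% and 28.2%). These figures are not matched: members have 1 window each, and the all-gene figure counts every window of a gene. G and C made up 36.4% (Pfkm) to 69.6% (Hk2) of the members' windows and were not measured for the others, so no enrichment is read from the comparison. Among the members that rose at 10 µM without the block, 4 of 8 held a match, and among the other matched members 19 of 25 did. A match is a description of letters, not of a site. The windows below are examples from members that rose in one of the fits, and do not show how common a match was among them. Pdk1 and Pfkp rose in both, Hk2, Pgk1 and Pgam1 rose with the block, and Hk1 rose in both without a match. Of the members not shown, Pfkl and Pgd rose in both with a match, and Gpi1, Tpi1 and Eno2 without one. With the block alone, Gapdh, Eno1, Pdk3 and G6pdx rose with a match, and Aldoa and Pkm without one. The windows shown are written 5′ to 3′ on the gene's strand, ending at the base before the start, in lower case with each match in capitals (CACGT and CACGC are the same words on the other strand).
Pdk1: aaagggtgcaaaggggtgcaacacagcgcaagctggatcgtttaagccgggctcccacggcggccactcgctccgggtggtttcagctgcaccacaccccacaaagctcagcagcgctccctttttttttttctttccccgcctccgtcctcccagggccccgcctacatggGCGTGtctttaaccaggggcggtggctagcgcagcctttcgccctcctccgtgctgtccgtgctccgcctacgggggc
Pfkp: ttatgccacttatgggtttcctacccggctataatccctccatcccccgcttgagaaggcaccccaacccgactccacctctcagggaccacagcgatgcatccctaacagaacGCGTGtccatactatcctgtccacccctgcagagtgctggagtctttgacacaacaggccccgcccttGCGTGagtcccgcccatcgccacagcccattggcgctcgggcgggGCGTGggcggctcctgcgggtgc
Hk2: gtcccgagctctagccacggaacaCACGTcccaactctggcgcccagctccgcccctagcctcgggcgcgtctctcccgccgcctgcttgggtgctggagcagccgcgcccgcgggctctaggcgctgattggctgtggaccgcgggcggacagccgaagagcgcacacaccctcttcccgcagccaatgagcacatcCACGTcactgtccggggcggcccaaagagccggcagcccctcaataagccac
Pgk1: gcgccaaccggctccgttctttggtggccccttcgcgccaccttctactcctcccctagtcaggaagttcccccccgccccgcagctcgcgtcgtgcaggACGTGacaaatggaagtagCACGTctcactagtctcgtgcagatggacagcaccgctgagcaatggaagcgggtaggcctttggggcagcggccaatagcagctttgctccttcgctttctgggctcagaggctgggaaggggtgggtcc
Pgam1: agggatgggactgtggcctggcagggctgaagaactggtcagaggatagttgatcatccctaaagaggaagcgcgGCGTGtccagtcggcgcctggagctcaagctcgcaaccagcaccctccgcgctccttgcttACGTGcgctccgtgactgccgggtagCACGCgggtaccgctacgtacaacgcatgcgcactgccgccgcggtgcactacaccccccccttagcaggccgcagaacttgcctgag
Hk1: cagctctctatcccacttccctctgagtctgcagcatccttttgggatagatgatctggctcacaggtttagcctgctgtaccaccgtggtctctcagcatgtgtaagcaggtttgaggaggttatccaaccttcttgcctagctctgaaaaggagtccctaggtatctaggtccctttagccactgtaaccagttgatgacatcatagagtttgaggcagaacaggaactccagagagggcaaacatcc
They lie at chr2:71872974-71873223 (plus strand) for Pdk1, chr13:6648772-6649021 (minus) for Pfkp, chr6:82774455-82774704 (minus) for Hk2, chrX:106186850-106187099 (plus) for Pgk1, chr19:41911621-41911870 (plus) for Pgam1 and chr10:62379909-62380158 (minus) for Hk1. Counting back from -1 at the base before the start, and taking the first base of each match, Pdk1 has GCGTG at -78, Pfkp at -136, -68 and -23, Hk2 has ACGTG at -226 and -52, Pgk1 at -150 and -131, and Pgam1 has ACGTG at -114 and GCGTG at -175 and -88. These windows lie upstream of the annotated exons, except that 6 bases of the Pfkp window are exonic in GENCODE.

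Libraries of different passages also differed in these genes, in shares near those of all genes for 2 of the 3 comparisons. With treatment in the fit, 14 of 33 members differed between passages 18 and 12 (4 up, 10 down), where 33.9% of 15949 genes did (15.3% up, 18.7% down). Between passages 14 and 12, 14 differed (9 up, 5 down), against 20.8% of genes (9.66% up, 11.1% down). Between passages 18 and 14, 12 differed (0 up, 12 down), against 32.1% of genes (15.3% up, 16.8% down). Each passage has 3 libraries, 1 per treatment, and the labels do not say whether these share a culture. A passage difference can therefore not be taken as replicated over separate cultures. Hk2 differed most. Its CPM at passages 12, 14 and 18 was 53.7, 36.8 and 22.7 with DMSO, 59.7, 38.4 and 23.4 with 0.5 µM and 145, 93.5 and 51.98 with 10 µM. Within each treatment it fell at each later passage, by 1.38 ± 0.068 on the log2 scale from passage 12 to 18 (adjusted p = 1.87e-14).

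All 4 PDH subunits were lower at passage 18 than at passage 12. Pdha1 had 137, 144 and 112 CPM with DMSO at passages 12, 14 and 18 and differed by -0.32 ± 0.061 between passages 18 and 12 (adjusted p = 0.000154). Dlat had 72.6, 70.6 and 58.6 CPM with DMSO and differed by -0.50 ± 0.067 (adjusted p = 1.41e-06). Pdhb and Dld differed by -0.34 ± 0.063 and -0.34 ± 0.066, with adjusted p = 9.95e-05 and 0.000194. For each of the 4 subunits all 3 libraries of passage 18 were below all 3 of passage 12, and the share of all genes with such a separation is not given here. Over the same passages Pdk3 fell by 0.57 and Pdp1, at 20.4, 26.99 and 31.3 CPM with DMSO, rose by 0.57 ± 0.088 (adjusted p = 1.51e-06 and 1.1e-05).

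Pfkfb3, Taldo1 and Tigar were highest at passage 14. Pfkfb3 had 15.99, 26.6 and 18.1 CPM with DMSO, 19.0, 26.5 and 17.3 CPM with 0.5 µM and 16.5, 26 and 13.98 CPM with 10 µM. It was higher at passage 14 than at 12 by 0.62 ± 0.090 and was lower at 18 than at 14, at -0.70 ± 0.090 on the log2 scale (adjusted p = 7.61e-06 and 6.95e-07). Taldo1 had 161, 213 and 167 CPM with DMSO and differed by 0.33 and -0.48 over the same steps (adjusted p = 0.000583 and 2.41e-06), and Tigar by 0.29 and -0.58 (adjusted p = 0.0349 and 3.83e-05). Gapdh, Pgk1 and Eno1 also rose from passage 12 to 14 (0.23, 0.28 and 0.30) and fell from 14 to 18 (-0.28, -0.41 and -0.27), Pgam1 and Aldoa rose from 12 to 14 (0.43 and 0.27), and Tpi1 fell from 14 to 18 (-0.33). Hk1, Gpi1, Pfkl, Pkm, Pdk1, Pdk2, Pfkfb2, Pfkfb4, Pgls, Pgd, Tkt, Rpia and Rpe passed in none of the 3 passage comparisons. Of the 15 endothelial markers, 14 rose and 1 fell between passages 12 and 18 (15.3% and 18.7% of all genes), and their part in the passage results was not tested. Of the 14 calls between passages 14 and 12, 9 were left without the DMSO library of passage 12 and 7 without the 0.5 µM library of passage 14.

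**Figure D5:**
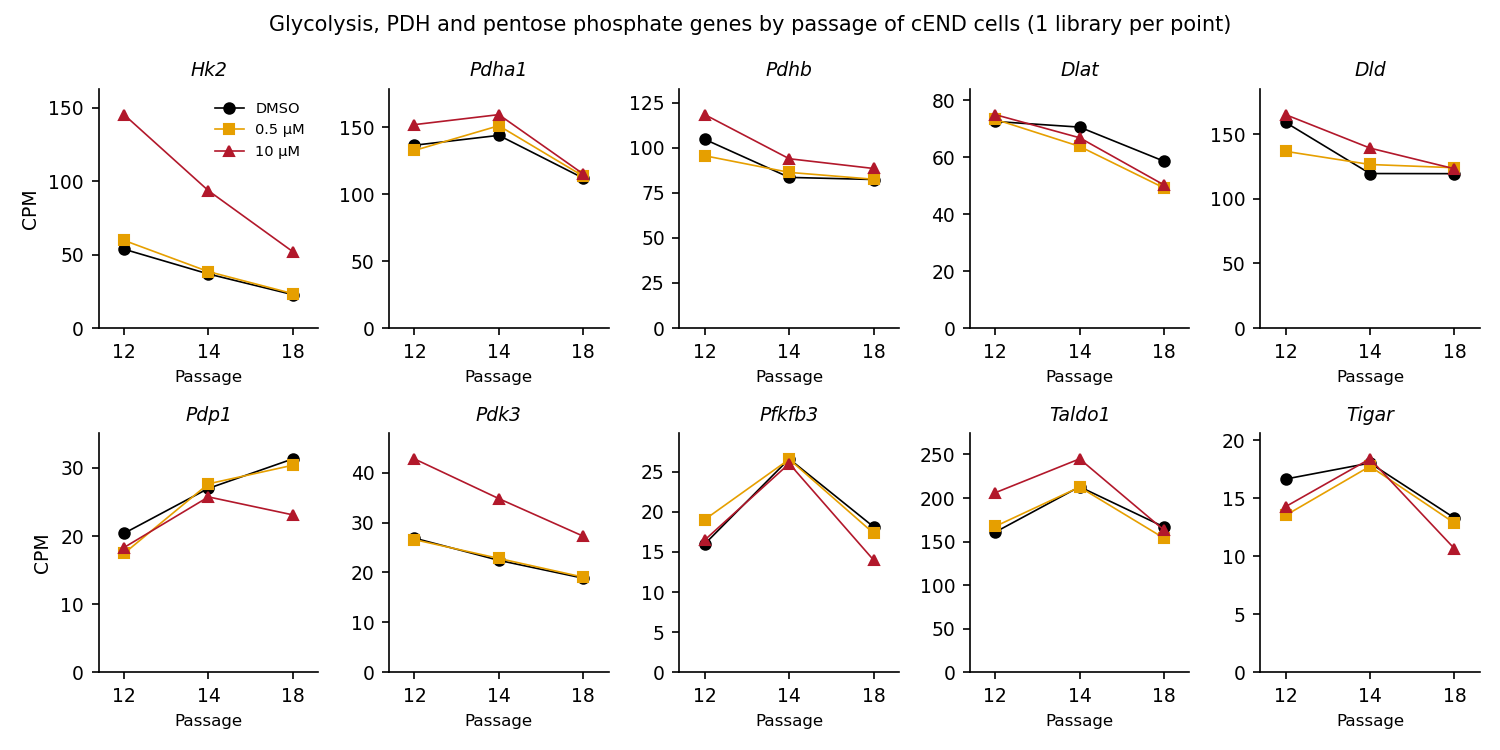
CPM of 10 genes by passage (12, 14, 18) in cEND cells given DMSO (black circles), 0.5 µM (orange squares) or 10 µM WZB117 (red triangles), 1 library per point; the lines join libraries of 1 treatment. Hk2 goes from 53.7 to 22.7 CPM with DMSO and from 145 to 51.98 CPM with 10 µM, every passage 18 point of the 4 PDH subunits lies below those of passage 12, and Pfkfb3 peaks at passage 14.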

How the data were processed

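Bulk RNA was sequenced in 16 hypothalamic bacTRAP libraries and 9 cEND libraries. For each experiment the authors deposited 1 table holding estimated counts by Ensembl identifier, with 17.3% and 19.8% of values not whole; the build is GRCm38 per the submitters' processing notes, and the counting program is not given in the sources used here. Counts were rounded, filtered (filterByExpr), TMM-scaled and fitted with edgeR 4.0.16 (R 4.3.3; 2-sided quasi-likelihood test, Benjamini-Hochberg, threshold 0.05); DESeq2 1.42.0 was an alternative. The SE is the log2 fold change over the root of F. IP against INPUT used 16 libraries, diet 8 each, dose and passage 9. The p-values measure the spread between pools, between passages (unblocked dose fits) or between libraries within passages (blocked and passage fits). Symbols, coordinates and exon lengths came from GENCODE release M21. Some of the fits were also run on simulated counts with planted changes but no shared deviation of a passage or replicate. No result here rests on that run. Passage numbers pair the cEND libraries per the labels, with correlations of same-numbered deviations of 0.56 to 0.81. Members and lists were chosen with earlier results of these data known. All members are named; of the other lists, up to 6 passing genes of smallest p per comparison or, where none passed, the 2 of smallest p. Tie1 was named after its value was seen.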

Additional observations from a re-analysis of the deposited data

Results flagged for a closer look

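Of 136 sets of 4 libraries (34 genes in 4 groups), 10 held a library far from its group, judged by the gap to its nearest neighbour against the range (Dixon's 95% value of 0.829); chance gives about 1 in 20. Pdp1 stood high in replicate 2 of both diets in INPUT, at 149.7 CPM in CD (others 106 to 112) and 166.4 CPM in HFD (others 91.1 to 94.5). Rpe was also high in CD INPUT replicate 2, at 25.53 CPM (others 22.64 to 23.03). CD INPUT replicate 4 was low for Pgk1, at 190.2 CPM (others 209 to 210.3), and high for Tkt, at 67.57 CPM (others 55.2 to 57.0), and CD INPUT replicate 1 was low for Tigar, at 13.28 CPM (others 14.5 to 14.7). In IP, Tkt was low in HFD replicate 3, at 74.65 CPM (others 85.4 to 87.0), Hk1 high in HFD replicate 4, at 92.36 CPM (others 78.1 to 79.6), Pdha1 high in HFD replicate 1, at 121 CPM (others 113 to 114), and Pgls high in CD replicate 3, at 17.04 CPM (others 14.9 to 15.2).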

How the results depend on the processing

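No member changed direction past the threshold under any alternative. Called members at 10 µM against DMSO were 8, 13 with DESeq2 and 17 with the replicate block (all 8 kept in both), 6 with only the 6 libraries compared (Gpi1 and Pfkp lost, adjusted p 0.0639 and 0.0517), and 1 to 8 on leaving out 1 library; against 0.5 µM they were 7, 13, 20 and 1 to 7 (all 7 kept in both). In HFD against CD in IP, 0 members became 1 with DESeq2 and 2 with no filter on low counts. Shares over all genes are not given here for the DESeq2 and unfiltered fits, so their member counts stand without a background. Without treatment in the fit, the passage calls were 6 (18 against 12), 3 (14 against 12) and 5 (18 against 14) in place of 14, 14 and 12; leaving out 1 library gave 11 to 17, 7 to 17 and 10 to 16. IP against INPUT had 31 to 32 calls on leaving out 1 library, 31 with no filter, 30 with CD and 29 with HFD libraries alone. With the replicate number as a block, IP against INPUT kept all 32 calls and the diet comparisons 0; same-numbered IP and INPUT deviations correlated at 0.11 to 0.25 (CD) and 0.01 to 0.24 (HFD), and CD and HFD pools at 0.01 to 0.07 (IP) and 0.1 to 0.17 (INPUT). The labels do not say that equal numbers share a pool, so the fits above are unpaired. Adding named copies to their parent genes, chosen after seeing the data, changed no call of Eno1, Gapdh or Pgk1 at 10 µM. The 3 families whose leading isoenzyme differed between CD IP and DMSO remained 3 with the longest transcript as length and with no length. The leaders themselves depended on length: with none, Pdk1 in place of Pdk3 was highest with DMSO (34.5 against 22.7 CPM). Pfkp likewise had a higher mean than Pfkm in CD INPUT (116.8 against 100.5 CPM). Low counts limit Aldoc (not tested) and Pdk2 in cEND libraries.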
